A study of Mus musculus with 3 samples.

Results

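The miR-181 family was examined in the developing mouse retina through its 10 mature forms, which are all entries named miR-181a, b, c or d among the 1915 mature miRNAs listed. They comprise 4 forms from the 5p arm and 6 from the 3p arm, and the rule that selects them uses their names and no measured value. Retinas of C57BL/6 mice (C57BL/6J in the study's methods), for which the labels give no treatment, were collected on postnatal days 1, 7 and 17 (P1, P7 and P17), those of 5 eyes were pooled for each age, and each pool gave 1 small RNA library. As far as the labels state, the 3 groups differed only in age. With no replicate libraries, none of the differences below could be set against variation between samples. The labels do not give the number or sex of the mice behind each pool, and the study's legend gives 5 per group without saying whether these were eyes or mice.

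A miRNA is cut from a hairpin precursor, whose 2 arms give the 5p and the 3p strand. Usually 1 strand is loaded into an Argonaute protein as the guide that finds target mRNAs through its seed, the bases 2 to 8 from the 5′ end, and the other strand is mostly degraded. In the miR-181 family the 5p strand is the usual guide. The family is known for tuning antigen receptor signalling in lymphocytes, and in the retina for its expression in amacrine and ganglion cells of the inner layers, for axon growth of these neurons and for repressing genes of mitochondrial biogenesis and mitophagy.

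The 4 guide strands are shown first because they share their whole seed, printed in capitals, and differ only beyond it. The sequences are from RefSeq and are written 5′ to 3′, with the mouse prefix (mmu) that is dropped in the text.
mmu-miR-181a-5p: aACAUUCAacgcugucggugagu
mmu-miR-181b-5p: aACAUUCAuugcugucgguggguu
mmu-miR-181c-5p: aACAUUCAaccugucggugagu
mmu-miR-181d-5p: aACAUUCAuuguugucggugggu
No other mature mouse miRNA of the RefSeq table had the seed ACAUUCA, which 4 names carried. Positions were counted from 1 at the 5′ end of the form named first. From miR-181b-5p to miR-181d-5p there was a single substitution, C12U, besides the length of 24 and 23 bases. MiR-181c-5p aligned to miR-181a-5p without a substitution and lacked only position 11 of it, at 22 against 23 bases. MiR-181a-5p and miR-181b-5p differed by A9U, C10U and A21G. These are near-identical sequences, so the authors' counting could have split reads between miR-181b-5p and miR-181d-5p or between miR-181a-5p and miR-181c-5p.

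The 3p strands are shown because, unlike the 5p strands, they tell the copies of miR-181a and of miR-181b apart.
mmu-miR-181a-1-3p: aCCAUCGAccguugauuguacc
mmu-miR-181a-2-3p: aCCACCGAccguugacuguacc
mmu-miR-181b-1-3p: cUCACUGAacaaugaaugcaa
mmu-miR-181b-2-3p: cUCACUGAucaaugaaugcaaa
mmu-miR-181c-3p: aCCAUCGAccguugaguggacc
mmu-miR-181d-3p: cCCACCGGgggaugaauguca
The capitals mark bases 2 to 8 again, and they fall into 4 groups here. MiR-181a-1-3p and miR-181c-3p shared CCAUCGA although they come from different chromosomes, and miR-181b-1-3p and miR-181b-2-3p shared UCACUGA. MiR-181a-1-3p and miR-181c-3p differed by U16G and U19G, miR-181a-1-3p and miR-181a-2-3p by U5C and U16C, and miR-181b-1-3p and miR-181b-2-3p by A9U.

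The family is encoded by 6 hairpin genes in 3 clusters, given here on GRCm38. On chromosome 1, Mir181a-1 (ENSMUSG00000065565, chr1:137966455-137966541, plus strand) and Mir181b-1 (ENSMUSG00000065458, chr1:137966639-137966718, plus strand) are 97 bases apart. Both lie in an intron of the non-coding gene Gm4258 on the same strand, and Mir181b-1 also lies inside the exon of the long non-coding RNA A430106G13Rik, which overlaps the end of Mir181a-1. On chromosome 2, Mir181a-2 (ENSMUSG00000065423, chr2:38852735-38852810, plus strand) and Mir181b-2 (ENSMUSG00000065578, chr2:38853830-38853918, plus strand) are 1019 bases apart and lie antisense to an intron of Nr6a1, which encodes an orphan nuclear receptor. On chromosome 8, Mir181c (ENSMUSG00000065483, chr8:84178873-84178961, minus strand) and Mir181d (ENSMUSG00000076338, chr8:84178716-84178787, minus strand) are 85 bases apart in an intron of Nanos3, an RNA-binding protein gene known from germ cells. MiR-181a-5p and miR-181b-5p are each made from the chromosome 1 and the chromosome 2 cluster, with identical sequences, whereas miR-181c and miR-181d come from chromosome 8 alone.

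The libraries held 11426320 to 12759995 miRNA reads, so that 1 read was worth 0.0784 to 0.0875 RPM and a floor of 3 reads stood at 0.235 to 0.263 RPM. RPM here is the number of reads of a miRNA scaled to the total of miRNA reads of its library, hence a share in which the level of any miRNA depends on all others. The photoreceptor and sensory miRNAs miR-182-5p, miR-183-5p and miR-96-5p together went from 77854 RPM at P1 to 304394 RPM at P7 and 301141 RPM at P17, which lowers the share left to the rest. These 3 and all 9 neuronal miRNAs of a marker list, among them miR-124-3p and miR-9-5p, had reads at each age. So did every miRNA of the lists for other cell types given below, so presence alone does not test the retina label. All intervals below are 95% intervals of counting error, which does not include variation between mice or libraries.

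The family was among the most abundant in the retina, and its share was larger at each later age. Its 10 forms together took 7.93% of the miRNA reads at P1, then 9.46% at P7 and 12.1% at P17. The summed level was 79299 RPM at P1, then 94558 RPM at P7 and 120732 RPM at P17, a 1.52-fold difference between P1 and P17 (interval 1.52 to 1.53). Almost all of it was guide strand, since 3p reads made up 2.95% of the family at P1, then 1.53% at P7 and 0.606% at P17. In bulk retina, fewer cells of a type and less RNA per cell cannot be told apart.

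MiR-181a-5p, the main guide of the family, accounted for most of this level. It had 560071 reads (49016 RPM) at P1, then 878052 reads (68813 RPM) at P7 and 1109234 reads (95134 RPM) at P17. It was the fifth most abundant miRNA of the retina at P1, the fourth at P7 and the third at P17. Its level was 1.94-fold higher at P17 than at P1 (interval 1.93 to 1.95), a log2(RPM + 1) change of 0.96 that lies just inside the 2-fold limit used as the call. The difference was spread evenly over the 2 steps, with log2 changes of 0.49 up to P7 and 0.47 after it. The RPM difference between P1 and P17 ran against the typical miRNA of these libraries. The median log2 change of the 648 miRNAs past the abundance filter was -0.91 between P1 and P17. Of these miRNAs, 89.0% changed by less than miR-181a-5p or in the other direction.

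MiR-181b-5p, transcribed from the same 2 clusters as miR-181a-5p, kept nearly the same RPM level. It had 241599 reads (21144 RPM) at P1, then 262547 reads (20576 RPM) at P7 and 261312 reads (22412 RPM) at P17. Its log2 changes were -0.04 up to P7 and 0.12 after it, and the sign of each step depended on how the libraries were scaled. From P1 to P17 the level differed 1.06-fold (interval 1.05 to 1.07). Relative to miR-181a-5p it therefore lost ground, as there were 2.32 reads of miR-181a-5p per read of miR-181b-5p at P1, then 3.34 at P7 and 4.24 at P17.

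MiR-181c-5p was the least abundant of the guides and had its highest level at P17. It had 3676 reads (321.7 RPM) at P1, then 3972 reads (311.3 RPM) at P7 and 5339 reads (457.9 RPM) at P17. P1 and P7 could not be told apart beyond counting error, with a ratio of 0.968 (interval 0.925 to 1.01), whereas P17 was 1.42-fold above P1 (interval 1.36 to 1.48). MiR-181c-5p moved from place 153 to place 96 among all miRNAs, although its log2 change of 0.51 stayed inside the 2-fold limit.

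MiR-181d-5p, made from the same cluster as miR-181c-5p, was the only guide that fell past 2-fold between P1 and P17. It had 74060 reads (6482 RPM) at P1, then 43536 reads (3412 RPM) at P7 and 23280 reads (1997 RPM) at P17. Its level was 3.25-fold lower at P17 than at P1 (interval 3.20 to 3.29), with log2 changes of -0.93 up to P7 and -0.77 after it. The decrease up to P7 was close to the median of all miRNAs at that step (-0.87), and it was 0.04 under median-of-ratios scaling and 0.06 under TMM scaling. After P7 the median of all miRNAs was -0.05, so the later decrease of miR-181d-5p stood apart from it, and it kept its sign under each of the 4 other scalings tried.

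**Figure D1:**
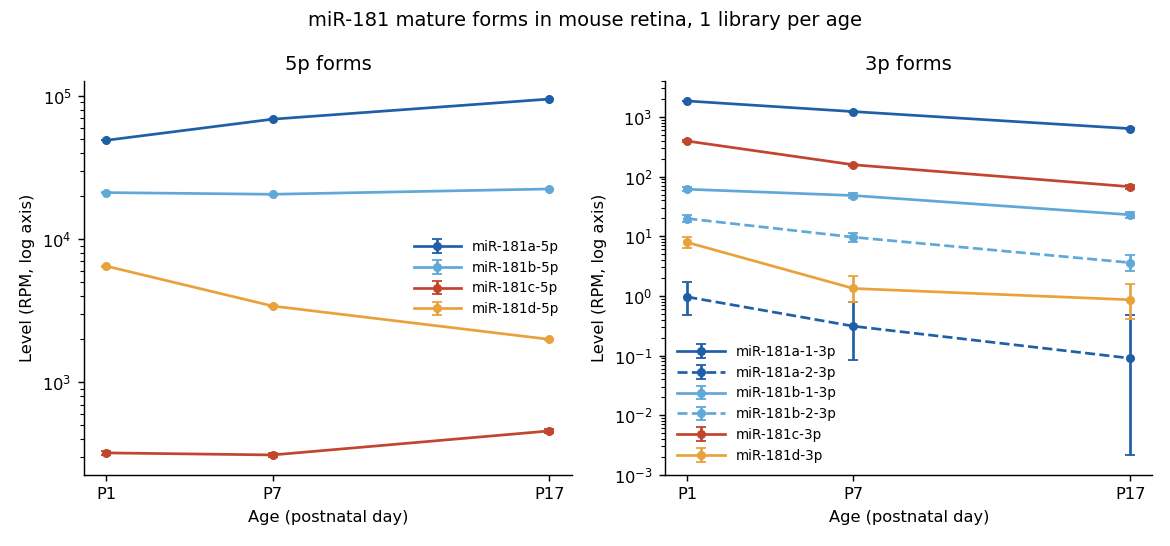
Level in RPM (log axis) of the 4 5p forms (left) and the 6 3p forms (right) of miR-181 against postnatal age, with 1 library per age. Points are the deposited values, bars are 95% binomial intervals of counting error, lines join the ages and dashed lines mark the chromosome 2 copies. MiR-181a-5p went from 49016 to 95134 RPM while miR-181d-5p went from 6482 to 1997 RPM, and each of the 3p forms was lowest at P17.

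In RPM, the 3p strands all had their highest level at P1 and their lowest at P17. Among the guides, only miR-181d-5p had this course. For miR-181a-2-3p and miR-181d-3p, P7 and P17 could not be told apart beyond counting error. The most abundant 3p strand was miR-181a-1-3p. It had 21160 reads (1852 RPM) at P1, then 15686 reads (1229 RPM) at P7 and 7427 reads (637.0 RPM) at P17. It was 2.91-fold lower at P17 than at P1 (interval 2.83 to 2.99), while the guide that can come from the same hairpin was 1.94-fold higher. MiR-181b-1-3p had 701 reads (61.4 RPM) at P1, then 614 reads (48.1 RPM) at P7 and 267 reads (22.9 RPM) at P17, and was 2.68-fold lower at P17 than at P1 (interval 2.32 to 3.10). For both chromosome 1 strands the difference between P1 and P7 was smaller than that between P7 and P17, and its sign turned under most other scalings: miR-181a-1-3p changed by 0.37 with median-of-ratios size factors and miR-181b-1-3p by 0.60.

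The chromosome 2 strands were rare. MiR-181b-2-3p had 226 reads (19.8 RPM) at P1, then 123 reads (9.64 RPM) at P7 and 42 reads (3.60 RPM) at P17, a 5.49-fold decrease from P1 to P17 (interval 3.94 to 7.83). MiR-181a-2-3p had 11 reads at P1, then 4 at P7 and 1 at P17, the last of which is under the floor of 3 reads. Its ratio of P1 to P17 was 11.2 with an interval of 1.63 to 483, and its mean level of 0.453 RPM kept it out of the counts of members below. It differs from miR-181a-1-3p by 2 bases, so a few of its reads could belong to that far more abundant strand.

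On the log2(RPM + 1) scale, the chromosome 8 strands had the largest decreases of the 9 forms past the filter described below. MiR-181c-3p had 4501 reads (393.9 RPM) at P1, then 2013 reads (157.8 RPM) at P7 and 789 reads (67.7 RPM) at P17. It fell past 2-fold at both steps, and was 5.82-fold lower at P17 than at P1 (interval 5.40 to 6.29). MiR-181d-3p had 90 reads (7.88 RPM) at P1, then 17 reads (1.33 RPM) at P7 and 10 reads (0.86 RPM) at P17, so its 9.18-fold decrease is imprecise (interval 4.77 to 19.8). Within each age the levels of neighbours in the order of the family were apart beyond counting error, except that miR-181d-3p and miR-181a-2-3p overlapped at P7 and P17.

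Of the 10 forms, 9 passed the filter of a mean of at least 1 RPM. Between P1 and P17, 6 of the 9 fell past 2-fold and 0 rose past it, against 46.8% of all 648 miRNAs lower and 10.5% higher. The 6 were miR-181d-5p and the 5 3p forms past the filter. Decreases past 2-fold were thus common among all miRNAs. Within the family the median log2 change was 0.30 over the 4 guides and -2.18 over the 5 3p forms, against -0.91 over all miRNAs. The strands overlapped, as the guide miR-181d-5p (-1.70) lay below miR-181a-1-3p (-1.54) and miR-181b-1-3p (-1.38). Between P1 and P7, miR-181c-3p and miR-181d-3p fell past 2-fold, 2 of the 9 forms against 44.8% of all miRNAs lower, and 0 rose against 3.09% higher. Between P7 and P17, the forms that fell were miR-181b-1-3p, miR-181b-2-3p and miR-181c-3p, 3 of the 9 against 11.6% of all miRNAs lower, and 0 rose against 14% higher. Several forms lay near the limit, among them miR-181a-1-3p with a log2 change of -0.95 and miR-181b-1-3p with -1.04 at this step.

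**Figure D2:**
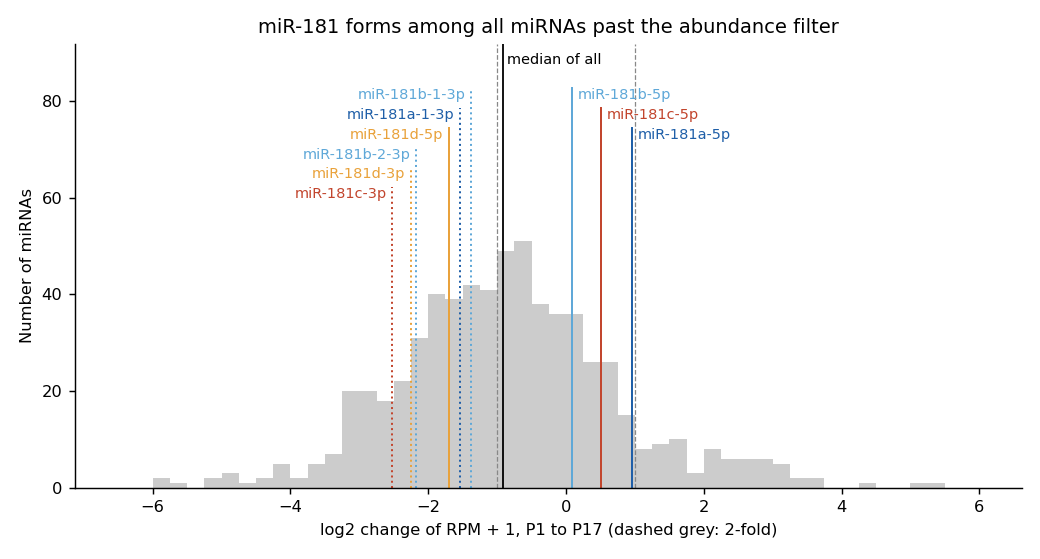
Histogram of the log2 change of RPM + 1 from P1 to P17 for the 648 miRNAs past the abundance filter, with the 9 miR-181 forms among them marked (solid lines, 5p forms; dotted lines, 3p forms). The black line is the median of all miRNAs (-0.91) and dashed grey lines mark 2-fold. The guides miR-181a-5p, miR-181b-5p and miR-181c-5p lie above that median, while miR-181d-5p and the 3p forms lie below it.

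The clusters were compared through shares within the family, which do not depend on the scaling of the libraries. Among the 5p reads, miR-181c and miR-181d together made up 8.84% at P1 (interval 8.78 to 8.90), then 3.999% at P7 (3.96 to 4.03) and 2.05% at P17 (2.02 to 2.07). There were 10.3 reads of miR-181a-5p and miR-181b-5p per read of the chromosome 8 guides at P1, then 24.0 at P7 and 47.9 at P17, a 4.64-fold change (interval 4.58 to 4.71). Summed over the pair, the a and b guides went from 70160 to 89389 and 117545 RPM at P1, P7 and P17, and the c and d guides from 6803 to 3723 and 2455 RPM. This ratio changed 2.33-fold up to P7 and 1.99-fold after it, so the chromosome 8 guides had a smaller share at each later age.

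The smaller share was that of miR-181d-5p and hardly that of miR-181c-5p. MiR-181d-5p took 8.42% of the 5p reads at P1 and 1.66% at P17, whereas miR-181c-5p took 0.418% and 0.382%. There were 20.1 reads of miR-181d-5p per read of miR-181c-5p at P1, then 11.0 at P7 and 4.36 at P17, although both are cut from hairpins 85 bases apart. The 2 guides of chromosome 8 therefore diverged from each other by 4.62-fold (interval 4.42 to 4.83). MiR-181a-5p and miR-181b-5p, by comparison, diverged by 1.83-fold (interval 1.82 to 1.84) over the same period.

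The near-identical guides, which come from different clusters, were compared in the same way. The ratio of miR-181d-5p to miR-181b-5p was 0.307 at P1, then 0.166 at P7 and 0.0891 at P17, and so was 3.44-fold lower at the end. The ratio of miR-181c-5p to miR-181a-5p was 0.00656 at P1, then 0.00452 at P7 and 0.00481 at P17. It differed much less, 1.36-fold from P1 to P17 (interval 1.31 to 1.42), and mainly before P7. How many reads the counting exchanged within a pair was not tested.

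**Figure D3:**
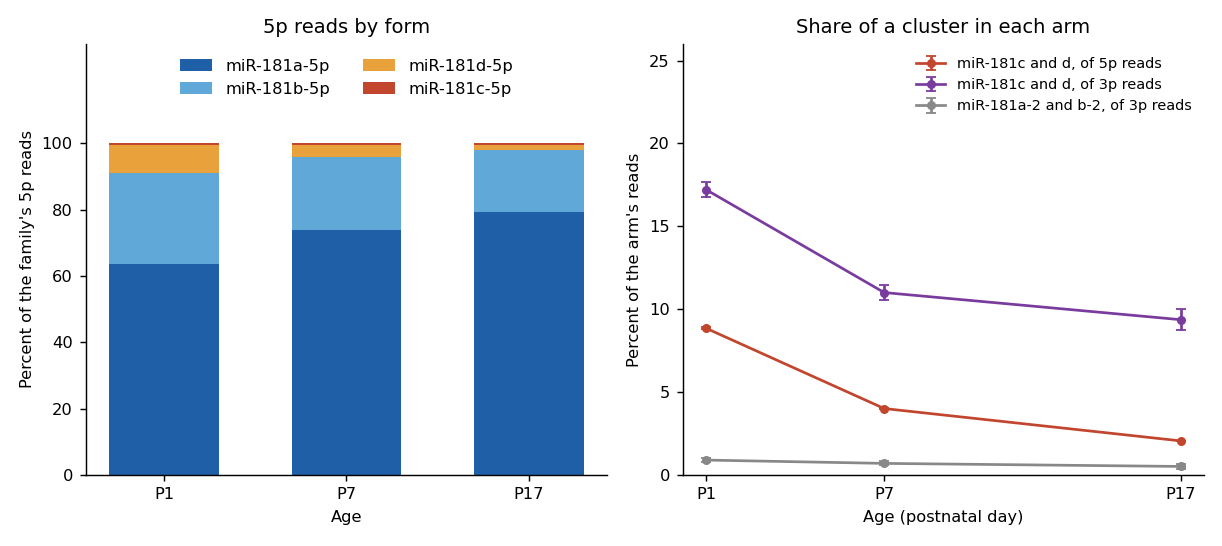
Left, the share of each guide among the 5p reads of the family in each library, as stacked bars in percent. Right, the share of a cluster among the reads of 1 arm against postnatal age, with 95% binomial intervals of counting error. MiR-181c and d went from 8.84% to 2.05% of the 5p reads and from 17.2% to 9.36% of the 3p reads, and the chromosome 2 cluster stayed under 1% of the 3p reads.

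The 3p reads, a small part of the family, were counted under names that belong to 1 cluster each, mostly those of chromosome 1. Some of these names differ by few bases, miR-181b-1-3p and miR-181b-2-3p by 1 and miR-181a-1-3p and miR-181c-3p by 2. Reads exchanged between them in the counting could alter the shares of clusters and copies, which was not tested. The chromosome 1 cluster gave 81.9% of the 3p reads at P1, then 88.3% at P7 and 90.1% at P17. The chromosome 8 cluster gave 17.2% at P1 (interval 16.8 to 17.7), then 11.0% at P7 (10.6 to 11.5) and 9.36% at P17 (8.75 to 9.998). The chromosome 2 cluster gave 0.888% at P1, then 0.688% at P7 and 0.504% at P17. Relative to chromosome 1, the 3p reads of chromosome 8 were 2.02-fold lower at P17 than at P1 (interval 1.87 to 2.19) and those of chromosome 2 were 1.94-fold lower (interval 1.40 to 2.69). The chromosome 8 sums of the arms hold different miRNAs, as its 3p reads were nearly all miR-181c-3p (4501 of 4591 at P1 and 789 of 799 at P17) and its 5p reads mostly miR-181d-5p (95.3% at P1 and 81.3% at P17). Compared with the like arm of miR-181a, miR-181c-3p was 2.00-fold lower relative to miR-181a-1-3p at P17 than at P1 (interval 1.85 to 2.17), against the 1.36-fold of miR-181c-5p relative to miR-181a-5p.

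Between the copies of 1 miRNA, chromosome 1 gave nearly all the 3p reads of miR-181a and the larger part of those of miR-181b. MiR-181a-1-3p made up all but 11 of the 21171 3p reads of miR-181a at P1, then 4 of 15690 at P7 and 1 of 7428 at P17. MiR-181b-1-3p made up 75.6% of those of miR-181b at P1 (interval 72.7 to 78.4), then 83.3% at P7 (80.4 to 85.9) and 86.4% at P17 (82.1 to 90.0). How far the 3p strand tracks the transcription of its locus was not tested, as each hairpin keeps a different part of its 3p strand.

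The balance of the arms moved towards the guide strand in each of the 4 miRNAs. This ratio is taken within a library and does not depend on scaling. The shift was most visible for miR-181c, in which the strand with more counted reads switched. At P1 its 3p strand was the more abundant, with 0.817 reads of 5p per read of 3p (interval 0.782 to 0.853), but the ratio was 1.97 at P7 (1.87 to 2.08) and 6.77 at P17 (6.28 to 7.30). The 3p strand thus went from 55.0% of the reads of miR-181c at P1 to 33.6% at P7 and then 12.9% at P17. Between P1 and P17 the ratio changed 8.29-fold (interval 7.60 to 9.03). Of 191 hairpins with both arms past the filter, 1 had a larger rise, that of miR-149. MiR-181c-5p held only 0.652% of the reads of miR-181a-5p and miR-181c-5p at P1, 0.450% at P7 and 0.479% at P17. A few miR-181a-5p reads counted as miR-181c-5p could thus alter its arm ratio, and so could miR-181a-1-3p reads counted as miR-181c-3p. The 2 arms may also differ in ligation, which bears on which strand appears the more abundant. None of these was tested.

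MiR-181a and miR-181b were read with the 3p reads of both copies summed, because their guides cannot be assigned to a copy. For miR-181a the ratio of 5p to 3p reads was 26.5 at P1, then 56.0 at P7 and 149.3 at P17, a 5.64-fold rise (interval 5.50 to 5.80). For miR-181b it was 260.6 at P1, then 356.2 at P7 and 845.7 at P17, a 3.24-fold rise (interval 2.85 to 3.69). The guides of the a and b clusters were therefore already in large excess at P1 and were more so at P17.

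For miR-181d the ratio was 822.9 at P1 (interval 669 to 1023), then 2561 at P7 (1599 to 4397) and 2328 at P17 (1266 to 4855). Its rise of 2.83-fold from P1 to P17 rests on 90 and 10 reads of the 3p strand, with an interval of 1.47 to 5.44, and P7 and P17 could not be told apart. Thus 4 of 4 miRNAs rose past 2-fold in this ratio, against 18.8% of the 191 hairpins, whose median log2 change was 0.17. Up to P7, 3 of 4 did so (miR-181a, miR-181c and miR-181d) against 7.33%, and after P7, 3 of 4 (miR-181a, miR-181b and miR-181c) against 9.95%. The 191 hairpins include miR-181c and miR-181d. They do not include miR-181a and miR-181b, whose 3p forms are named by copy and so have no 5p form of the same name. The 4 miRNAs are not independent, because guides of different members are near-identical.

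**Figure D4:**
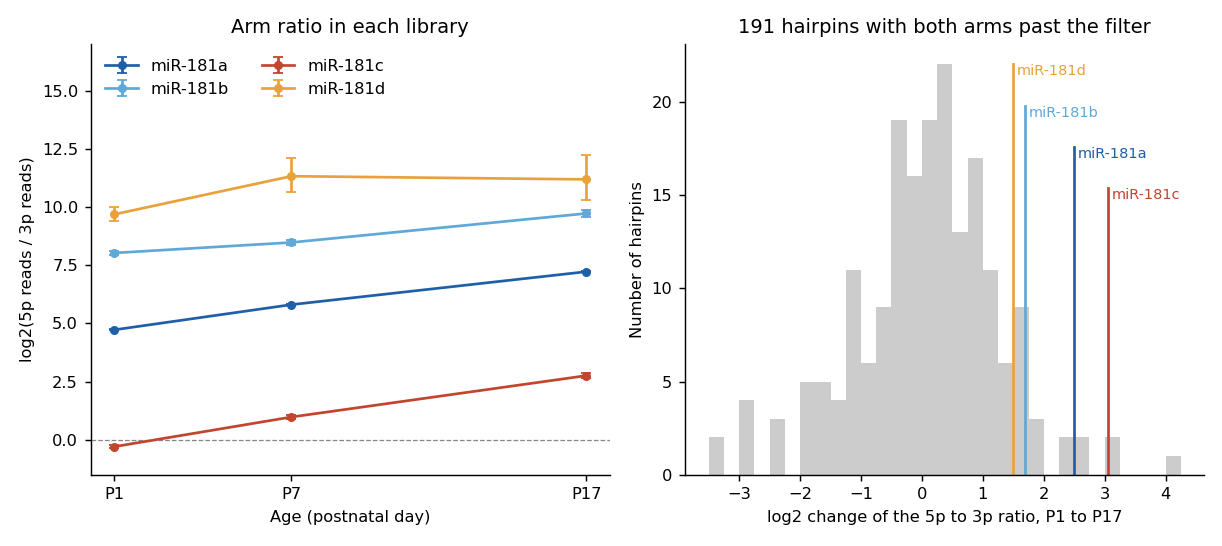
Left, log2 of the ratio of 5p to 3p reads of each miR-181 miRNA against postnatal age, with exact 95% intervals of counting error; the dashed line marks equal arms. Right, histogram of the log2 change of this ratio from P1 to P17 over 191 hairpins, with the 4 miRNAs marked. MiR-181c and miR-181d are among the 191, and miR-181a and miR-181b are not. MiR-181c crossed the line of equal arms between P1 (0.817) and P7 (1.97), and its log2 change of 3.05 lies at the upper end of the histogram.

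The scaling of the libraries altered which of the forms passed 2-fold. With median-of-ratios size factors the median log2 change of all miRNAs between P1 and P17 was 0.01 instead of -0.91, and 23.9% of miRNAs were past 2-fold lower and 25.5% higher. Under that scaling miR-181a-5p, miR-181b-5p and miR-181c-5p rose past 2-fold, by 2.00, 1.13 and 1.55 on the log2 scale. MiR-181b-2-3p, miR-181c-3p and miR-181d-3p still fell past it, whereas miR-181d-5p (-0.65), miR-181a-1-3p (-0.49) and miR-181b-1-3p (-0.37) did not. Each of the 10 forms kept the sign of its change between P1 and P17 under all 4 other scalings. Relative to the median of all miRNAs with RPM, the change was 1.87 for miR-181a-5p, 0.99 for miR-181b-5p, 1.42 for miR-181c-5p and -0.79 for miR-181d-5p.

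**Figure D5:**
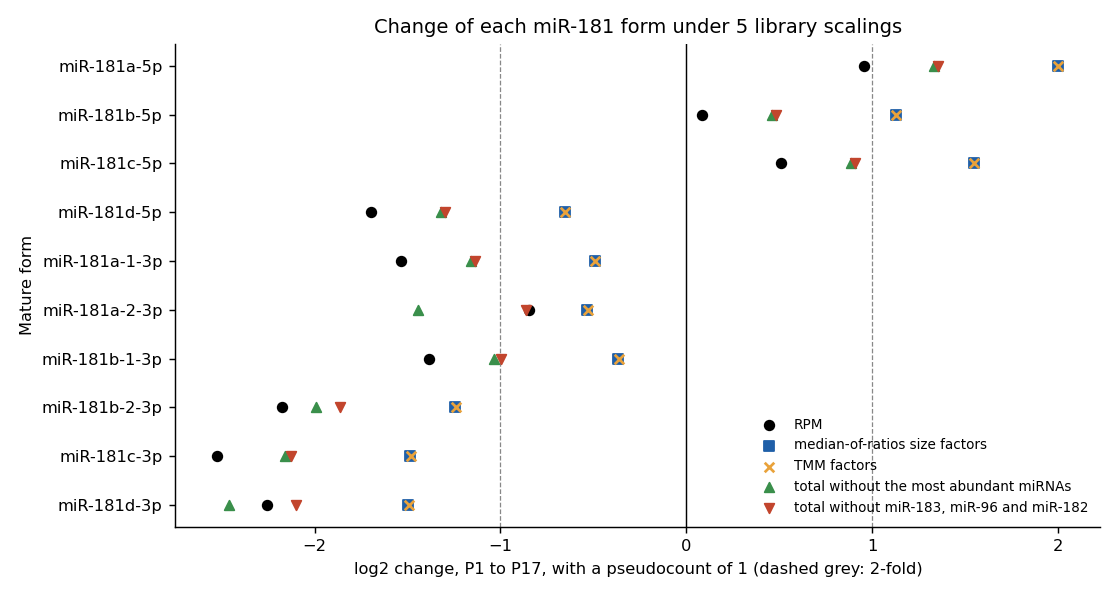
Log2 change from P1 to P17 of each miR-181 form with a pseudocount of 1, under the deposited RPM (black circles) and 4 other scalings of the libraries. Dashed grey lines mark 2-fold. The guides of miR-181a, b and c lie to the right of 0 and the other 7 forms to the left under each scaling, and the number of forms past 2-fold differs between them.

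Markers of other cell types also differed between the ages, and their part in these results was not tested. The endothelial list (miR-126a-3p and miR-126a-5p) summed to 1261 RPM at P1, then 3643 RPM at P7 and 8530 RPM at P17, with 2 of 2 rising past 2-fold. The mural cell list (miR-143-3p and miR-145a-5p) summed to 195.0, 376.3 and 1492 RPM, again with 2 of 2 rising. Immune markers, 4 miRNAs including miR-223-3p and miR-150-5p, summed to 13.6 RPM at P1 and 35.9 RPM at P17. MiR-223-3p was under the filter, and 1 of the 3 past it rose. The red blood cell markers miR-451a and miR-144-3p summed to between 12.9 and 46.7 RPM, with 1 of 2 rising. Of 5 lens and surface epithelium markers, miR-205-5p, miR-200a-3p and miR-200b-3p fell past 2-fold and miR-184-3p rose, from 100.7 to 568.9 RPM, while miR-141-3p was under the filter. The pigment epithelium pair miR-204-5p and miR-211-5p summed to 15211 RPM at P1, then 7226 RPM at P7 and 14334 RPM at P17, with 1 of 2 rising. Of the 9 neuronal miRNAs, miR-124-3p, miR-129-5p, miR-132-3p and miR-212-3p rose past 2-fold and miR-128-3p fell past it. Their sum went from 162896 RPM at P1 to 105818 RPM at P17. Most of that sum was miR-9-5p, with 144259 RPM at P1 and 74010.5 RPM at P17, a difference inside the 2-fold limit. Among all 648 miRNAs past the filter, 46.8% fell and 10.5% rose past 2-fold between P1 and P17.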

How the data were processed

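Small RNA libraries were made with the NEBNext Multiplex Small RNA set from total RNA of mouse retina. Per the labels, retinas of 5 eyes were pooled into 1 library at each of P1, P7 and P17, and 1 μg of total RNA was used. The study's methods state that adaptors and low-quality reads were removed from reads of 50 nt and that the rest were aligned to mm10 with HISAT2, whereas the submitters' processing notes list FastQC and BWA. The miRNA annotation and the counting rule are not given in the sources used here. The authors deposited raw read counts for 1915 mature miRNAs and RPM values, which equal the count scaled to the miRNA total of the library to within 0.0192 RPM.

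The deposited RPM values were compared as log2(RPM + 1), a scale that understates changes of rare forms. The filter kept 648 miRNAs whose mean level reached 1 RPM, and a fold above 2 was the call. The fold comes from the study's methods. No adjusted p-value was computed, because edgeR's test needs replicates and each age had a single library. The intervals for levels, shares, ratios between libraries and arm ratios are exact 95% binomial (Clopper-Pearson) intervals, and those for changes of a ratio are 95% Wald intervals on the log scale. They cover counting error alone and treat each read as an independent draw. The reads were amplified by PCR and carried no molecular identifiers, so the intervals can be too narrow even for counting error. Ligation in library preparation favours some sequences, so a level is best compared between ages for the same sequence.

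The family is defined by name, but it and the lists were chosen for study with earlier results of these data known. The miRNAs named were the 10 mature forms, the 3 nearest to miR-181a-5p and to miR-181c-5p by distance over the 2 steps (among miRNAs of at least 100 RPM), and the marker lists. Mature sequences were matched by name in a RefSeq table (GRCm38.p6, 10 of 10), and hairpin positions came from GENCODE M21 on GRCm38, the same build as mm10. The alternatives were other library scalings (median-of-ratios size factors, TMM factors and 2 reduced totals), pseudocounts, filters and folds. The call and the intervals were run on simulated Poisson counts without variation between samples. Such counts cannot show how either performs on single libraries of real samples. TMM factors were computed with edgeR 4.0.16 in R 4.3.3, intervals with scipy 1.17.1, and the rest with Python 3.11.15, pandas 2.3.3, numpy 2.4.6, Biopython 1.88 and matplotlib 3.10.9.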

Additional observations from a re-analysis of the deposited data

How the results depend on the processing

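Pseudocounts of 0.1 and 5 RPM and a ratio without a pseudocount left the summed guide levels within counting error, and adding 0.5 reads to each arm or 3p form did the same for the arm ratios and cluster shares. Scaling moved the summed levels. In the order size factors (median of ratios), TMM factors, a total that leaves out the 10 most abundant of any library, and a total that leaves out the miR-183 cluster, the log2 change of the a and b guides was 1.31, 1.34, 0.97 and 0.76 up to P7 (0.35 with RPM), 0.48, 0.46, 0.15 and 0.39 after P7 (0.40), and 1.79, 1.79, 1.12 and 1.15 from P1 to P17 (0.74). That of the c and d guides was 0.091, 0.12, -0.25 and -0.46 up to P7 (-0.87), so that its sign depended on the scaling, and -0.42, -0.42, -1.09 and -1.07 from P1 to P17 (-1.47). After P7 it was -0.52, -0.54 and -0.85 under the first 3 (-0.60). Within the family the divergence of the a and b from the c and d guides is the same under any scaling.

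The number of members past the fold was small and moved easily. Up to P7, 2 were lower, against 1 under each of the 4 scalings and with a filter of 10 RPM, 5 with a fold of 1.5 and 0 with a fold of 4, and 0 were higher, against 1 with median-of-ratios size factors, TMM factors and the total less the 10 most abundant. After P7, 3 were lower, against 5 with that total, 1 with a pseudocount of 5 RPM, 5 with a fold of 1.5 and 0 with a fold of 4. From P1 to P17, 6 were lower, against 3 with either set of factors and 3 with a fold of 4, and 0 were higher, against 3 with either set of factors, and 1 with either reduced total or a fold of 1.5. Over all miRNAs, 155 were lower and 165 higher with either set of factors, against 303 and 68. Counting both arms gave 9.09%, 4.11% and 2.09% for the share of miR-181c and d, and 3p reads alone gave 17.2%, 11.0% and 9.36%. Of 30 changes of single forms, 24 kept their sign under all 7 alternatives, and the other 6 were single steps of miR-181b-5p, miR-181c-5p, miR-181d-5p, miR-181a-1-3p and miR-181b-1-3p. The causes were not tested. Depth limits miR-181a-2-3p and miR-181d-3p, with 1 and 10 reads at P17. No paired analysis was possible because there is 1 library at each age.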

Other observations

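The miRNAs whose course was most like that of 2 guides were found by the distance between their log2 changes at the 2 steps, over 3 libraries and among 195 miRNAs outside the family with a mean of at least 100 RPM. Those nearest to miR-181a-5p were all of the let-7 family, which is known to accumulate as progenitors differentiate. Let-7c-5p was at a distance of 0.07, with 10177 RPM at P1, then 14960 RPM at P7 and 21028 RPM at P17. Let-7b-5p, at a distance of 0.35, went from 726.1 RPM at P1 to 1828 RPM at P17. Let-7f-5p, at 0.36, went from 40422 RPM at P1 to 61765 RPM at P17. Other 5p forms of let-7 had a lower RPM at P17 than at P1. Their log2 changes were -0.25 for let-7a-5p, -0.20 for let-7d-5p, -0.58 for let-7e-5p, -0.06 for let-7g-5p and -2.24 for let-7i-5p.

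Those nearest to miR-181c-5p had, like it, little difference in RPM between P1 and P7 and a higher RPM at P17. MiR-191-5p was at a distance of 0.11, with 2699 RPM at P1, then 2637 RPM at P7 and 4188 RPM at P17. MiR-136-5p was at 0.12, with 142.0, 136.7 and 218.2 RPM, and miR-30b-5p at 0.13, with 839.3, 878.1 and 1341 RPM. With 3 libraries, such a distance describes these values only.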
